A study of Gallus gallus with 12 samples.

Results

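The genes described here belong to 18 families of developmental transcription factors other than the HOX genes: FOX, SOX, KLF, TBX, GATA, CDX, BARX, NKX, MEIS, PBX, PITX, LHX, IRX, MSX, DLX, PRRX, NR2F and the family of SIX3. They were taken by symbol, as every gene of the count table whose symbol starts with 1 of these prefixes followed by a digit or by 1 letter and a digit. The rule found 116 of the 17138 genes of the table. It also took in 4 genes that are not such factors: TBXA2R, the thromboxane receptor, and GATAD1, GATAD2A and GATAD2B, proteins with a GATA-type zinc finger of which the GATAD2 pair belongs to the NuRD chromatin complex.

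The genes were read by Light-seq, in which RNA is copied into cDNA on a tissue section and regions drawn by hand are barcoded with light. Each sample gave counts for 3 layers of the gut wall of chick embryos at embryonic day 14. These were the mesenchyme under the epithelium, a longitudinal muscle on the inner side, and the superficial inner part of the circumferential muscle. The 12 samples formed 3 groups of 4. The hindgut group and the midgut group carried RCAS-mGFP, a retrovirus with a membrane fluorescent protein as control. The Hoxd13 midgut group carried RCAS-Hoxd13, the same virus with the posterior HOX factor Hoxd13. In all groups the virus had been electroporated in ovo at stage HH17 into the splanchnic lateral plate mesoderm at midgut level, in embryos kept at 38 °C. In the mesenchyme HOXD13 itself had 4, 2, 1 and 8 counts in hindgut replicates 1 to 4 and 213, 202, 155 and 238 in Hoxd13 midgut, against 0 in each of the 4 midgut samples.

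Transcription factors of these families set the identity of gut segments and layers. In the gut mesoderm, FOXF1 and FOXF2 act downstream of Hedgehog from the epithelium, and NKX3-2 and BARX1 pattern the mesenchyme of the stomach. The TALE homeodomain proteins MEIS and PBX bind DNA together with HOX proteins. CDX1 and CDX2 set the intestinal fate of the endoderm, GATA4, GATA5 and GATA6 act in endoderm and mesoderm, and SOX9 marks progenitors of the intestinal epithelium. SOX18 and KLF2 are known from endothelium, and SOX10 and FOXD3 from the neural crest cells that form the enteric nervous system.

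The mesenchyme columns held 210803 to 903222 counts per sample, the circumferential muscle 19920 to 112252 and the longitudinal muscle 11233 to 49535. A count of 0 in a mesenchyme sample allows up to 3 counts, or 2.67 to 16.2 CPM (counts scaled to the TMM library size), for counting error only. Fibroblast genes summed to 13660 to 22770 CPM in hindgut mesenchyme, 11140 to 15190 in Hoxd13 midgut and 14570 to 16490 in midgut. The epithelial genes EPCAM and CDH1 were also read there, with 467 and 1003 counts in hindgut, 440 and 979 in Hoxd13 midgut and 418 and 879 in midgut. These counts are not scaled to depth. Scaled to library size, 14 epithelial marker genes summed to a mean of 2188 CPM in hindgut, 3731 in Hoxd13 midgut and 3842 in midgut. Hindgut replicate 1, the deepest library, stood apart from hindgut replicates 2 to 4. Its sum over 14 epithelial marker genes was 3729 CPM, against 1631 to 1742 in the other hindgut samples, 3471 to 3991 in Hoxd13 midgut and 3122 to 4347 in midgut. Its sum over 16 smooth muscle genes was 6770 CPM, against 12710 to 15310 in the other hindgut samples, 7441 to 8221 in Hoxd13 midgut and 5341 to 7980 in midgut. Its 3 W-linked genes summed to 30.3 CPM, against 119 to 158 in the other hindgut samples, 140 to 174 in Hoxd13 midgut and 0 to 3.32 in midgut, so in the comparisons with midgut the sex of the embryos and the group cannot be told apart. The hindgut results below are therefore given with replicate 1, and without it where that ended a call, turned a direction or moved a value by over 1.5 times. Replicate 1 was singled out after these data were seen. The p-values without it therefore only describe the remaining samples and are no independent tests. The labels do not say whether the 4 samples of a group are separate embryos, so p-values measure only the spread between these samples.

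In the mesenchyme, 114 of the 116 genes had at least 1 count and FOXN1 and SIX3 had none. The low-count filter left 46 of them for testing. All 3 NR2F genes and both MEIS genes passed it, as did 8 of 12 KLF, 5 of 8 GATA, 6 of 13 SOX, 11 of 26 FOX, 2 of 3 CDX, 2 of 7 NKX and 2 of 11 TBX genes. The GATA count takes in GATAD1, which did not pass, and GATAD2A and GATAD2B, which did. The TBX count takes in TBXA2R, which did not pass. No DLX, IRX, LHX, BARX, MSX or PRRX gene passed, nor did any of the 5 of the SIX3 family. Among the 70 that did not, 27 had 1 to 3 counts over the 12 mesenchyme samples, 12 had 4 to 9, 18 had 10 to 49 and 11 had 50 to 110. The genes with the highest CPM, which is not corrected for gene length, were KLF5 with a mean of 677 CPM over the 12 samples, GATAD2B with 331, FOXP4 with 302, NR2F6 with 277 and TBX3 with 262. FOXF2 averaged 140 ± 28.9 CPM in hindgut, 140 ± 31.8 in Hoxd13 midgut and 138 ± 22.8 in midgut (SD, n = 4 each), close to the same level in all 3 groups. FOXP1, a forkhead factor of gut smooth muscle and many other tissues, averaged 160 ± 34.9 CPM in hindgut, 134 ± 22.3 in Hoxd13 midgut and 142 ± 11.2 in midgut. TBX2, a T-box repressor close to TBX3, averaged 138 ± 22.3 CPM in hindgut, 151 ± 18.5 in Hoxd13 midgut and 157 ± 19.2 in midgut. None of these 3 differed between groups beyond the spread of its samples.

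Hindgut was first set against midgut, the comparison between the large and the small intestine. None of the 46 genes passed at an adjusted p under 0.05 with the quasi-likelihood test of edgeR, adjusted by Benjamini-Hochberg over 4176 genes, of which 62 passed (1.48%; 1.32% higher and 0.168% lower in hindgut). At an unadjusted p under 0.05 there were 17 of the 46, beside 13.9% of all genes tested, and DESeq2 called 2 of the 46. Some of the 46 received no adjusted p from DESeq2, so it did not judge them. Without hindgut replicate 1, 18 of the 46 passed, 8 higher and 10 lower in hindgut, but so did 19.6% of all 4214 genes then tested (10.1% higher and 9.52% lower). The median log2 fold change of the 46 was 0.12, against -0.0034 over all genes tested.

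**Figure D1:**
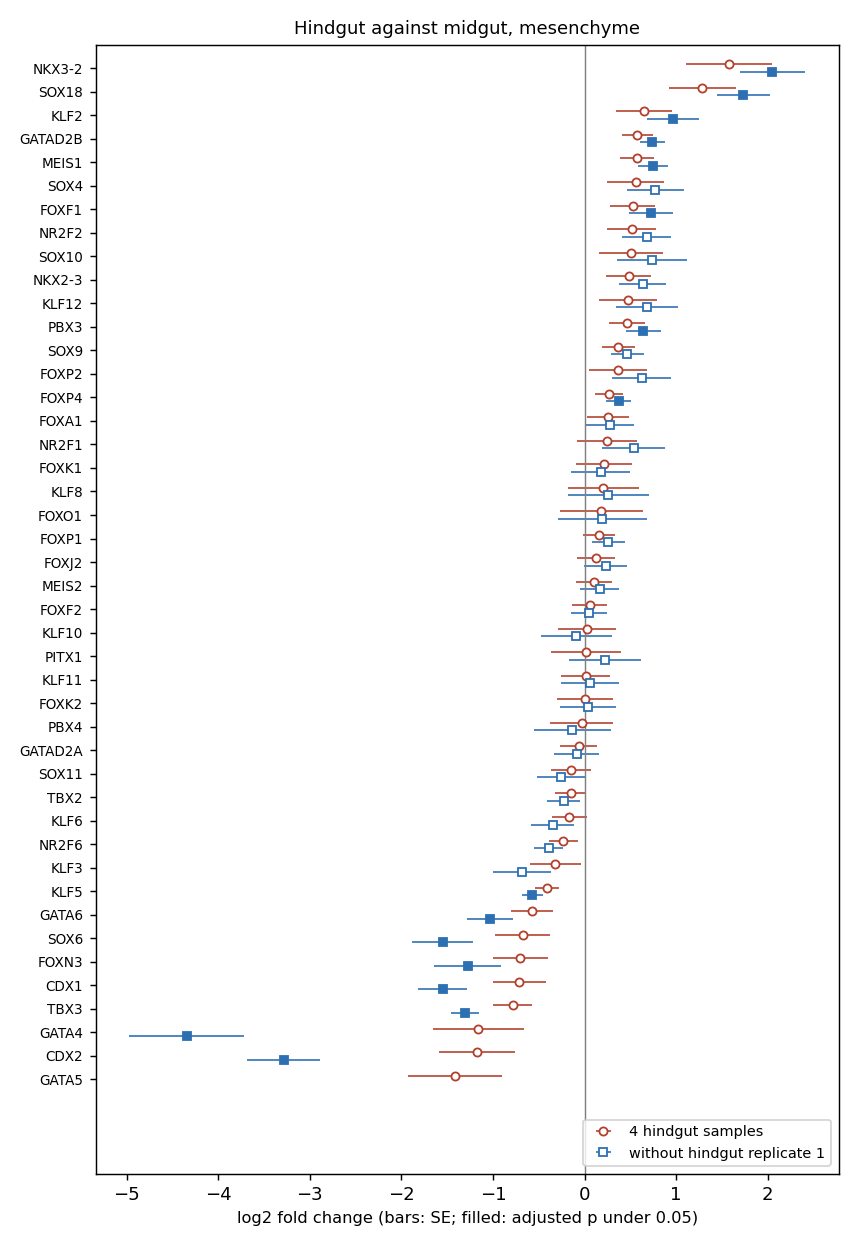
Log2 fold changes of tested genes for hindgut against midgut in the mesenchyme (x axis, bars are standard errors), with all 4 hindgut samples (circles) and without hindgut replicate 1 (squares); filled symbols have an adjusted p under 0.05. No circle is filled, while squares are filled on both sides of 0, and GATA5 has no square because its other hindgut samples are all at 0.

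The factors of the mesoderm had values in both directions. TBX3, a T-box repressor, had 357, 173, 148 and 151 CPM in hindgut, against 351, 346, 442 and 393 CPM in midgut. Hindgut replicates 2 to 4 were below all midgut samples, while replicate 1 lay among them. TBX3 gave a log2 fold change of -0.78 ± 0.21 (SE, n = 4 each, edgeR adjusted p = 0.061), and -1.30 ± 0.15 without replicate 1 (adjusted p = 2.1e-09).

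NKX3-2, also called Bapx1, had the highest fitted fold in hindgut among the 46 genes that passed the filter. It had 23.1, 70.1, 71.7 and 86.2 CPM in hindgut and 25.7, 19.9, 10.1 and 15.9 CPM in midgut. Replicates 2 to 4 of hindgut were above every midgut sample and replicate 1 was not. NKX3-2 gave a log2 fold change of 1.58 ± 0.47 (edgeR adjusted p = 0.086), and 2.05 ± 0.35 without replicate 1 (adjusted p = 1.1e-05). FOXF1 had 68.5, 70.1, 86.1 and 123 CPM in hindgut and 42.1, 73.1, 43.9 and 82.2 CPM in midgut, so the groups overlapped. Its log2 fold change was 0.53 ± 0.25 (adjusted p = 0.34), and 0.73 ± 0.24 without replicate 1 (edgeR adjusted p = 0.026). Among the HOX partners, MEIS1 had 149.5, 227, 263 and 246 CPM in hindgut and 161, 146, 111 and 154 CPM in midgut, with hindgut replicates 2 to 4 above every midgut sample. Its log2 fold change was 0.57 ± 0.19 (edgeR adjusted p = 0.13), and 0.75 ± 0.16 without replicate 1 (adjusted p = 0.00042). PBX3 gave 0.46 ± 0.20 (adjusted p = 0.27), and 0.64 ± 0.19 without replicate 1 (adjusted p = 0.012). MEIS2 did not differ beyond its spread, with a log2 fold change of 0.11 (95% interval -0.29 to 0.50), or 0.17 ± 0.21 without replicate 1.

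In hindgut replicates 2 to 4, NKX3-2 and MEIS1 were higher than in midgut and TBX3 was lower. Sums of smooth muscle markers were higher in these samples (12710 to 15310 CPM, against 5341 to 7980 in midgut, each of the 16 markers having counts). The sums of epithelial markers moved the other way (1631 to 1742 CPM, against 3122 to 4347 in midgut). Red blood cell genes also differed, at 360.5 to 797 CPM in hindgut and 189 to 331.5 in midgut over 6 genes. The part of these cells in the results was not tested, and in a region drawn on a section, fewer cells of a type and less RNA per cell cannot be told apart.

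Among the named factors of endoderm and intestinal epithelium that passed the filter, CDX1, CDX2 and KLF5 were lower in hindgut when replicate 1 was left out. SOX9 and FOXA1 had values on the other side. Factors of this kind below the filter are not covered by this statement. SOX9 gave a log2 fold change of 0.37 ± 0.18 (edgeR adjusted p = 0.37), and 0.47 ± 0.18 without replicate 1 (adjusted p = 0.061), and FOXA1 gave 0.26 ± 0.23 (adjusted p = 0.72), and 0.28 ± 0.26 (adjusted p = 0.52). CDX2 had 80.1, 0, 4.78 and 15.1 CPM in hindgut, against 95.9, 76.4, 132 and 71.6 CPM in midgut. Replicate 1 was again within the midgut range and the other 3 were far below it. The log2 fold change was -1.17 ± 0.42 (edgeR adjusted p = 0.17), with an adjusted p of 5.8e-09 without replicate 1, and the 8 counts of replicates 2 to 4 gave a ratio of 0.10 to midgut (exact 95% interval of counting error 0.043 to 0.204). CDX1 had 107, 53.9, 19.1 and 38.8 CPM in hindgut and 91.2, 116, 115 and 117 CPM in midgut. Its log2 fold change was -0.71 ± 0.29 (edgeR adjusted p = 0.24), and -1.55 ± 0.27 without replicate 1 (adjusted p = 1.2e-05). KLF5, a factor of the proliferating intestinal epithelium, was 1 of only 2 of the 46 genes whose hindgut and midgut samples did not overlap, as 2.97% of all genes tested also did not. It had 700, 545, 493 and 495 CPM in hindgut and 755, 725, 770 and 751 CPM in midgut, with a log2 fold change of -0.41 ± 0.13 (edgeR adjusted p = 0.11), or -0.57 ± 0.11 without replicate 1 (adjusted p = 0.00013). Of the 14 epithelial markers in the table, TFF2 was at 0 in hindgut and midgut and the others had counts in all 3 groups. The part of the epithelial genes in the CDX and KLF5 values was not tested.

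GATA5 was the other gene without overlap. It had 100 counts in hindgut replicate 1 and 0 in each of hindgut replicates 2 to 4, 19, 14, 13 and 32 in Hoxd13 midgut, and 53, 28, 36 and 36 in midgut. No other tested gene of these families was at 0 in 3 samples of a group. Against the floor of 3 counts over the 3 samples, hindgut replicates 2 to 4 were at least 17.2-fold lower than Hoxd13 midgut and at least 31.2-fold lower than midgut, and the exact 95% intervals of the ratios reached up to 0.0734 and 0.0398 (edgeR adjusted p against midgut 7.5e-13 without replicate 1, and 0.18 with it). In the muscle layers of the same samples, hindgut replicate 1 had 11 GATA5 counts in circumferential and 5 in longitudinal muscle and the other hindgut samples had 0. Replicate 1 was also the deepest there, with 112252 and 49535 counts in all, against 19920 to 50051 and 11233 to 23425 in the others. Hoxd13 midgut replicate 1 and midgut replicate 1 had 0 in circumferential muscle too, as had Hoxd13 midgut replicates 2 and 3 and midgut replicate 2 in longitudinal muscle. These columns are therefore too shallow to show whether the split held in muscle. GATA4 had 48.96, 5.39, 4.78 and 0 CPM in hindgut and 49.1, 63.1, 74.3 and 37.1 CPM in midgut. The 2 counts of hindgut replicates 2 to 4 gave a ratio of 0.043 to midgut (exact 95% interval 0.0051 to 0.161), with an edgeR adjusted p of 3.8e-07 without replicate 1 and 0.28 with it. GATA6 had 89.9, 64.7, 62.2 and 34.5 CPM in hindgut and 112, 109.7, 97.9 and 76.9 CPM in midgut, with replicates 2 to 4 of hindgut below every midgut sample. Its log2 fold change was -0.57 ± 0.23 (edgeR adjusted p = 0.25), or -1.04 ± 0.25 without replicate 1 (adjusted p = 0.0017). All 3 GATA factors thus had their lowest samples among hindgut replicates 2 to 4.

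**Figure D2:**
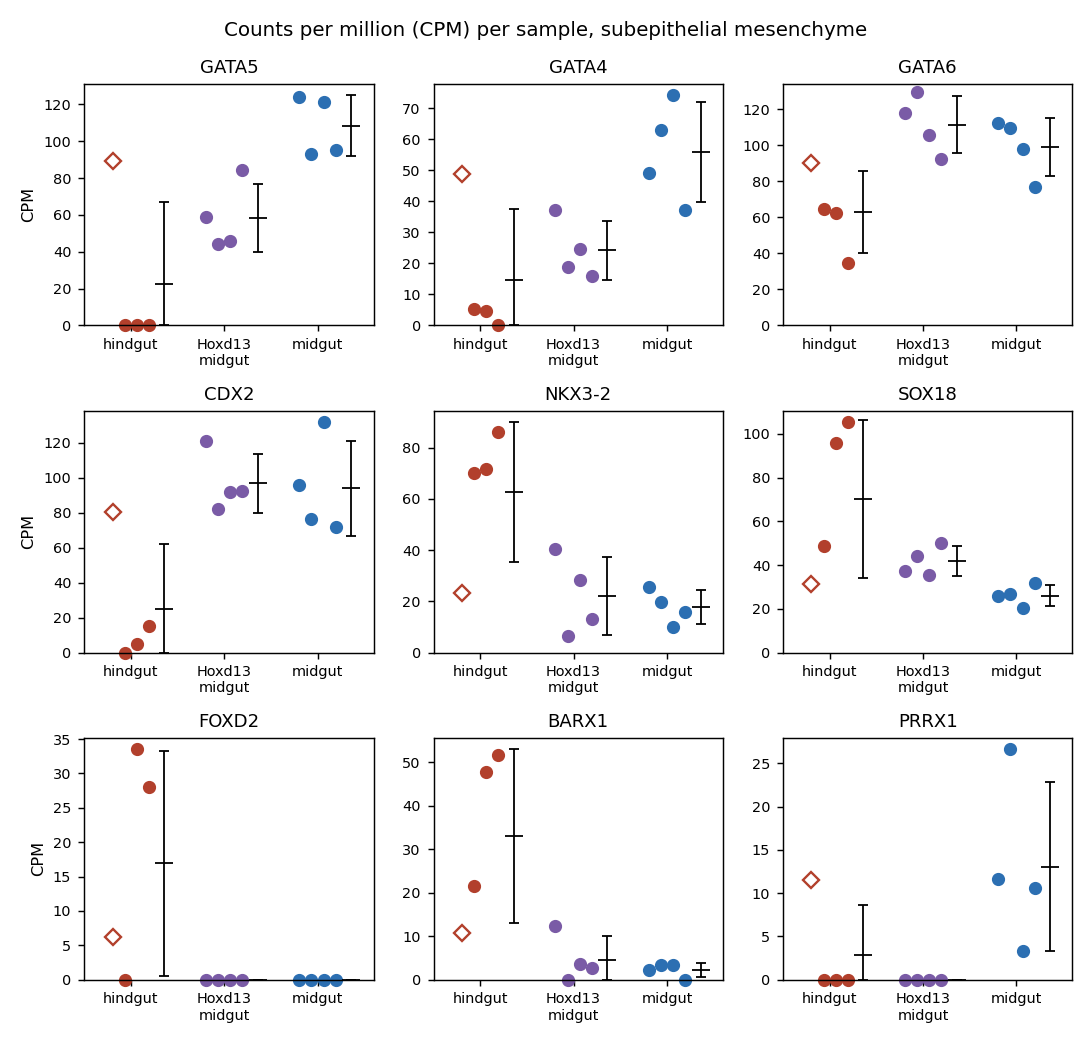
Each point is 1 mesenchyme sample, in CPM on the y axis, for 9 genes in hindgut (red; the open diamond is replicate 1), Hoxd13 midgut (purple) and midgut (blue), with the mean and SD of the 4 samples as a bar cut off at 0. For GATA5, GATA4, GATA6, CDX2 and NKX3-2, hindgut replicates 2 to 4 lie on 1 side of the midgut samples and replicate 1 does not stand with them.

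SOX18, a factor of blood and lymph vessels, had 31.2, 48.5, 95.7 and 106 CPM in hindgut and 25.7, 26.6, 20.3 and 31.8 CPM in midgut. Replicates 2 to 4 were above all midgut samples and replicate 1 just below the highest. SOX18 gave a log2 fold change of 1.29 ± 0.36 (edgeR adjusted p = 0.076), and 1.74 ± 0.29 without replicate 1 (adjusted p = 5.8e-06). KLF2 gave 0.65 ± 0.31 (edgeR adjusted p = 0.35), and 0.96 ± 0.28 without replicate 1 (adjusted p = 0.011). Sums over 11 endothelial markers were 188 to 308 CPM in hindgut and 167 to 213 in midgut, and whether they bear on SOX18 and KLF2 was not tested. GATAD2B gave 0.58 ± 0.17 (edgeR adjusted p = 0.086), and 0.74 ± 0.14 without replicate 1 (adjusted p = 3.9e-05). SOX6, which acts in cartilage and muscle, gave -0.68 ± 0.30 (edgeR adjusted p = 0.30), and -1.55 ± 0.33 without replicate 1 (adjusted p = 0.00038). FOXN3, a forkhead repressor, gave -0.70 ± 0.30 (edgeR adjusted p = 0.27), and -1.28 ± 0.36 without replicate 1 (adjusted p = 0.0078). FOXP4 passed only without replicate 1, at 0.37 ± 0.14 (edgeR adjusted p = 0.049).

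Hoxd13 midgut was set against midgut to ask what the posterior HOX factor changes in anterior mesoderm. TBX3 fell and KLF6, a zinc finger factor induced early in many cell responses, rose, and the other 44 tested genes did not pass. The 2 of 46 stand beside 2.66% of the 4176 genes tested, of which 1.32% were higher and 1.34% lower in Hoxd13 midgut, so the share of calls was close to the background. Hoxd13 midgut and hindgut were both compared with the same midgut samples, so the comparisons are not independent.

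TBX3 had 158, 212, 201 and 214 CPM in Hoxd13 midgut and 351, 346, 442 and 393 CPM in midgut, with no overlap. The log2 fold change was -0.96 ± 0.22 (SE, n = 4 each, edgeR adjusted p = 0.02), and -0.97 ± 0.13 without hindgut replicate 1, which is in neither group but shares the estimate of the spread (adjusted p = 1.9e-07). TBX3 was 196 ± 25.9 CPM in Hoxd13 midgut and 157 ± 13.4 in hindgut replicates 2 to 4 (SD, n = 3), against 383 ± 44.8 in midgut (n = 4). The adjusted p lay between 1.9e-07 and 0.085 over the 12 fits that left out 1 sample, and 6 of them did not pass: without any 1 of the 4 Hoxd13 midgut samples, or without midgut replicate 3 or 4.

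KLF6 had 112, 120, 130.5 and 132 CPM in Hoxd13 midgut and 72.5, 63.1, 91.1 and 76.9 CPM in midgut, with no overlap. The log2 fold change was 0.70 ± 0.18 (edgeR adjusted p = 0.038). It missed the threshold in 7 of the 12 fits that left out 1 sample, without any 1 of the 4 Hoxd13 midgut samples or without midgut replicate 1, 2 or 4 (adjusted p 0.009 to 0.13 over the 12), with DESeq2 (adjusted p = 0.21) and with no filter (adjusted p = 0.14). Hindgut, at 77.4, 64.7, 67.0 and 53.9 CPM, overlapped the midgut samples, with a log2 fold change of -0.17 (95% interval -0.54 to 0.21) against midgut, or -0.35 ± 0.23 without replicate 1 (edgeR adjusted p = 0.34).

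**Figure D3:**
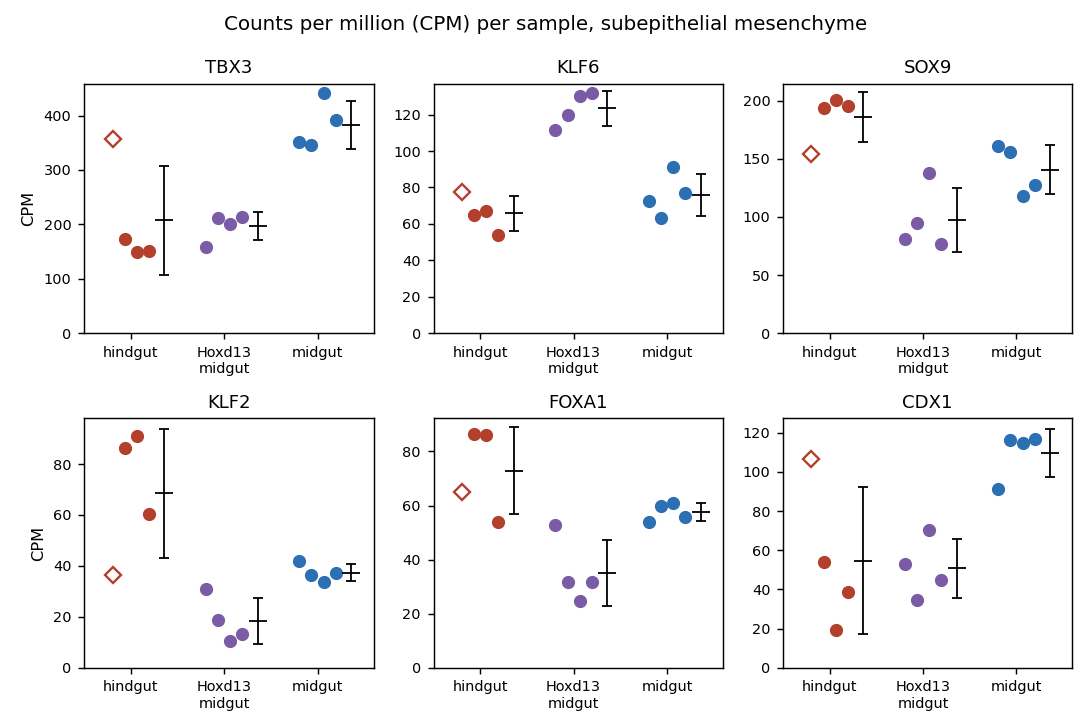
Each point is 1 mesenchyme sample, in CPM on the y axis, in hindgut (red; the open diamond is replicate 1), Hoxd13 midgut (purple) and midgut (blue), with the mean and SD of the 4 samples as a bar. In Hoxd13 midgut TBX3 was below and KLF6 above every midgut sample, and SOX9, KLF2 and FOXA1 were below every hindgut sample.

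Other genes had groups that did not overlap without passing the test. In all, 9 of the 46 genes did not overlap between Hoxd13 midgut and midgut, beside 13.5% of all genes tested. CDX1 had 52.7, 34.7, 70.6 and 44.9 CPM in Hoxd13 midgut and 91.2, 116, 115 and 117 CPM in midgut, with a log2 fold change of -1.12 ± 0.32 (edgeR adjusted p = 0.061). CDX2 showed no such difference, at 121, 82.1, 91.7 and 92.4 CPM in Hoxd13 midgut (log2 fold change 0.06, 95% interval -0.71 to 0.82). The epithelial marker sums of both groups overlapped (3471 to 3991 CPM in Hoxd13 midgut, 3122 to 4347 in midgut). GATA5 had 58.9, 44.2, 45.9 and 84.5 CPM in Hoxd13 midgut and 124, 93.1, 122 and 95.5 CPM in midgut, without overlap (log2 fold change -0.87 ± 0.52, edgeR adjusted p = 0.40). GATA4 gave -1.19 ± 0.54 (edgeR adjusted p = 0.26). GATA6 gave 0.16 (95% interval -0.28 to 0.61), so the members of this trio did not share 1 direction here, and the difference between them was not tested.

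Further values under an unadjusted p of 0.05 that did not pass were FOXA1 at -0.69 ± 0.26, KLF2 at -1.02 ± 0.39, KLF3 at -0.82 ± 0.31, SOX6 at -0.67 ± 0.32, SOX9 at -0.55 ± 0.20 and GATAD2B at 0.47 ± 0.17, with edgeR adjusted p between 0.15 and 0.28. In all 10 of the 46 were under that unadjusted p, beside 16.8% of all genes tested. Without hindgut replicate 1, 7 of the 46 passed, namely TBX3, CDX1, GATA5, GATA4 and SOX9 lower and KLF6 and GATAD2B higher in Hoxd13 midgut, beside 7.52% of all genes (3.2% higher and 4.32% lower). NKX3-2, at 40.3, 6.31, 28.2 and 13.2 CPM in Hoxd13 midgut, overlapped the midgut samples (log2 fold change 0.23, 95% interval -0.88 to 1.33).

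Hindgut was then set against Hoxd13 midgut, the comparison that shows where the Hoxd13 samples still differed from hindgut or differed in a way hindgut does not. Here 4 of the 46 genes passed, 3 higher and 1 lower in hindgut, beside 3.78% of the 4176 genes tested (2.25% higher and 1.53% lower). At an unadjusted p under 0.05 there were 11 of the 46, beside 17.6%, and 8 of the 46 did not overlap, beside 10.1%. The median log2 fold change of the 46 was 0.17, against 0.013 over all genes tested. KLF6 was lower, and SOX9, KLF2 and FOXA1, a forkhead factor of the endoderm, were higher. In each of the 4, all hindgut samples lay beyond all Hoxd13 midgut samples.

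SOX9 had 154, 194, 201 and 196 CPM in hindgut and 80.6, 94.7, 138 and 76.6 CPM in Hoxd13 midgut. The log2 fold change was 0.92 ± 0.19 (SE, n = 4 each, edgeR adjusted p = 0.012). Midgut, at 161, 156, 118 and 127 CPM, lay between the means of hindgut (186 CPM) and Hoxd13 midgut (97.4 CPM). KLF2 had 36.5, 86.3, 90.9 and 60.3 CPM in hindgut and 31.0, 18.9, 10.6 and 13.2 CPM in Hoxd13 midgut, a log2 fold change of 1.67 ± 0.36 (edgeR adjusted p = 0.014). The Hoxd13 midgut values rested on 10, 6, 3 and 5 counts, so they were near the floor. The midgut samples had 42.1, 36.6, 33.8 and 37.1 CPM of KLF2, so every Hoxd13 midgut sample was below every sample of both control groups. FOXA1 had 65.0, 86.3, 86.1 and 53.9 CPM in hindgut and 52.7, 31.6, 24.7 and 31.7 CPM in Hoxd13 midgut, with a log2 fold change of 0.95 ± 0.25 (edgeR adjusted p = 0.034). The highest Hoxd13 midgut sample and the lowest hindgut sample were almost level. Without hindgut replicate 1 the log2 fold changes were 1.04 ± 0.19 for SOX9, 1.99 ± 0.33 for KLF2 and 0.98 ± 0.29 for FOXA1 (edgeR adjusted p 6.2e-05, 1.2e-05 and 0.015). Epithelial marker sums were 3729 CPM in hindgut replicate 1, 1631 to 1742 in replicates 2 to 4 and 3471 to 3991 in Hoxd13 midgut. Endothelial marker sums were 188 to 308 CPM in hindgut and 161 to 253.5 in Hoxd13 midgut. Red blood cell genes summed to 360.5 to 797 CPM in hindgut and 145 to 182 in Hoxd13 midgut. The part of these cell types in these values was not tested. KLF6 gave -0.87 ± 0.18 (edgeR adjusted p = 0.011), with 53.9 to 77.4 CPM in hindgut and 112 to 132 in Hoxd13 midgut, and -1.04 ± 0.22 without replicate 1 (adjusted p = 0.00039).

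KLF6 passed in all 12 fits that left out 1 sample (adjusted p 0.00039 to 0.049). SOX9 missed the threshold without Hoxd13 midgut replicate 4 (adjusted p = 0.055), KLF2 without Hoxd13 midgut replicate 3 or 4 (0.05 and 0.055), and FOXA1 in 5 fits (up to 0.12), without hindgut replicate 2 or 3 or Hoxd13 midgut replicate 2, 3 or 4. FOXA1 also missed it with the 2 groups fitted alone (adjusted p = 0.074). With DESeq2, SOX9 passed and no other of the 46 genes did. KLF6, KLF2 and FOXA1 received no adjusted p from DESeq2, so it neither called nor rejected them. Without hindgut replicate 1, 15 of the 46 passed, 7 higher and 8 lower in hindgut, beside 14.9% of all genes (7.81% higher and 7.12% lower). Besides the 4 already named, NKX3-2 (1.85 ± 0.35), SOX18 (1.08 ± 0.27), MEIS1 (0.58 ± 0.16) and FOXP4 (0.46 ± 0.14) were then higher in hindgut. CDX2 (-3.33 ± 0.40), GATA6 (-1.18 ± 0.25), NR2F6 (-0.65 ± 0.15), KLF5 (-0.50 ± 0.11), GATA4 and GATA5 were among those lower. CDX1 and TBX3 were not among them, and with all samples their log2 fold changes between hindgut and Hoxd13 midgut were 0.40 (95% interval -0.24 to 1.05) and 0.18 (-0.26 to 0.62). Without replicate 1 both turned, to -0.42 ± 0.31 for CDX1 and -0.33 ± 0.16 for TBX3 (edgeR adjusted p 0.42 and 0.18, unadjusted p = 0.0496 for TBX3). With all samples, GATA6 gave -0.74 ± 0.23 (edgeR adjusted p = 0.082) and NR2F6, an orphan nuclear receptor, -0.50 ± 0.16 (0.082).

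**Figure D4:**
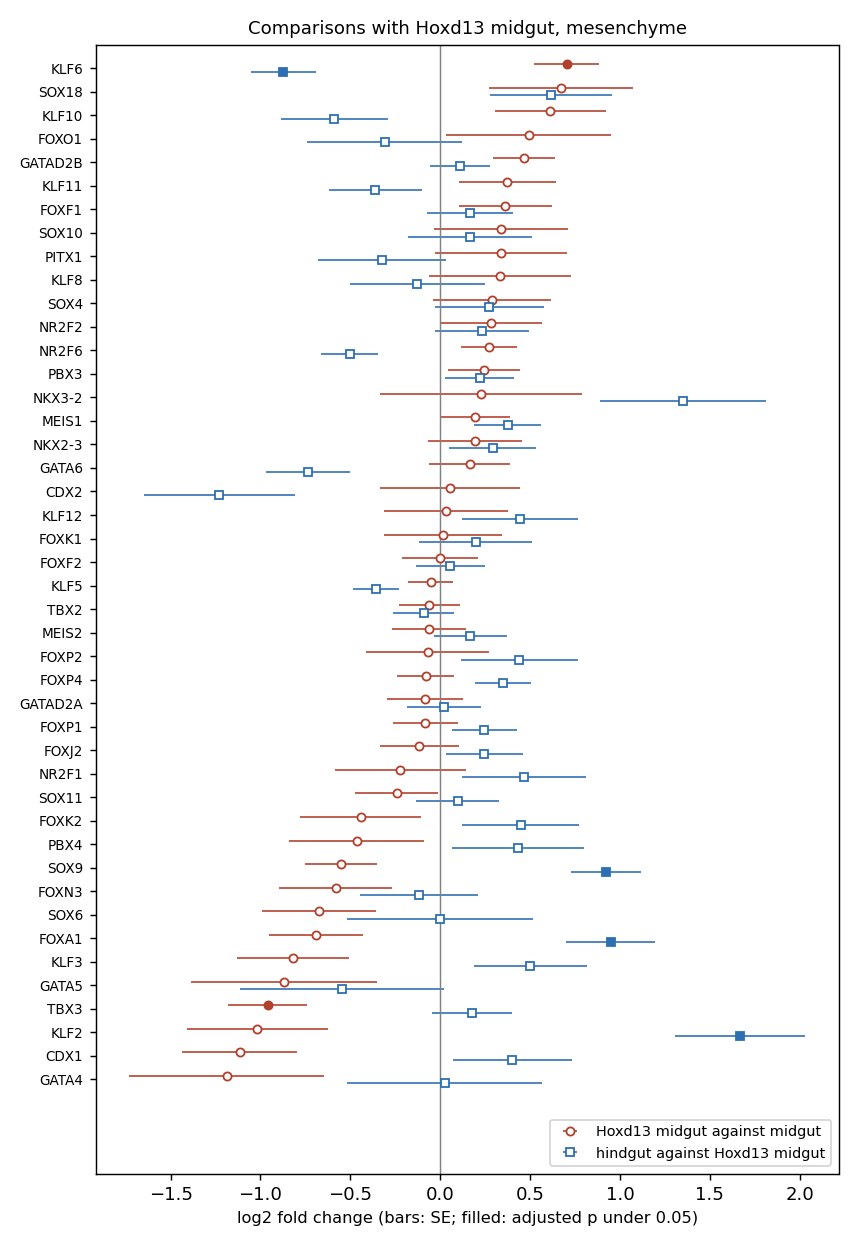
Log2 fold changes of tested genes (x axis, bars are standard errors) for Hoxd13 midgut against midgut (circles) and hindgut against Hoxd13 midgut (squares) in the mesenchyme; filled symbols have an adjusted p under 0.05. TBX3 and KLF6 are the filled circles and KLF6, SOX9, FOXA1 and KLF2 the filled squares; both comparisons share the Hoxd13 midgut samples and are not independent.

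Below the filter, 2 genes had at least 10 counts in all and 0 in every sample of a group. Both were picked for this absence. Their ratios, intervals and p-values below therefore rest on the values that chose them and are no independent test. FOXD2, a forkhead factor of mesenchyme in several organs, had 7, 0, 7 and 13 counts in hindgut and 0 in all 4 Hoxd13 midgut and all 4 midgut samples. Against the floor of 3 counts over a group, hindgut was 5.91-fold higher than Hoxd13 midgut and 6.37-fold higher than midgut. With the counting error of hindgut included, the exact 95% intervals of these ratios began at 4.48 and 4.83. The floor gave 10.1-fold against Hoxd13 midgut and 10.9-fold against midgut when hindgut replicate 1 was left out, with intervals that began at 7.48 and 8.06. PRRX1, a homeobox factor of limb and head mesenchyme, had 0 counts in all 4 Hoxd13 midgut samples and 5, 8, 1 and 4 in midgut. Against the floor Hoxd13 midgut was 5.57-fold lower. With the counting error of midgut included, the exact 95% interval of the ratio reached up to 0.245, so a smaller fold is possible. In hindgut, replicate 1 had 13 PRRX1 counts and replicates 2 to 4 had 0. In a fit of 16829 genes with no low-count filter, FOXD2 had an edgeR adjusted p of 0.00027 for hindgut against midgut and 0.00059 for hindgut against Hoxd13 midgut, and PRRX1 one of 0.0029 for Hoxd13 midgut against midgut. For hindgut against midgut that fit also called GATA5 (edgeR adjusted p = 8.1e-07), CDX2 (0.00022) and NKX3-2 (0.00072), which the main fit did not call. KLF6 lost its call for Hoxd13 midgut against midgut there (0.14). The p-values of the fit with no filter are therefore not comparable with those of the main fit.

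BARX1, chosen after its values were seen, had 12, 4, 10 and 24 counts in hindgut, 4, 0, 1 and 1 in Hoxd13 midgut and 1, 1, 1 and 0 in midgut. In CPM, hindgut had 10.7, 21.6, 47.8 and 51.7, Hoxd13 midgut 12.4, 0, 3.53 and 2.64, and midgut 2.34, 3.32, 3.38 and 0. The hindgut samples were above every midgut sample, and replicate 1 was just below the highest Hoxd13 midgut sample. The summed counts of hindgut were 11.8 times those of midgut per library (exact 95% interval 3.81 to 59.1) and 5.47 times those of Hoxd13 midgut (2.34 to 15.6). Without hindgut replicate 1, left out after the data were seen, the ratios were 20.7 (6.56 to 105) and 9.6 (4.03 to 27.8). In the fit with no filter, BARX1 was higher in hindgut than in midgut (log2 fold change 3.58, edgeR adjusted p = 1e-05) and than in Hoxd13 midgut (2.6, adjusted p = 0.0011). These p-values too are not comparable with those of the main fit.

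IRX6, KLF15 and FOXD3, also chosen after their values were seen, had few counts. IRX6 had 11 counts in hindgut, 9 of them in replicate 1, 1 in Hoxd13 midgut and 10 in midgut. KLF15 had 22, 3 and 10 counts, and FOXD3 21, 12 and 5, in hindgut, Hoxd13 midgut and midgut. SOX10, the other neural crest factor and chosen in the same way, passed the filter and averaged 38.0 ± 9.96 CPM in hindgut, 30.8 ± 12.6 in Hoxd13 midgut and 24.6 ± 9.29 in midgut, with overlapping samples. Sums over 17 enteric neuron and glia markers were 523.5 to 737 CPM in hindgut, 644 to 744.5 in Hoxd13 midgut and 711 to 804 in midgut.

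The 2 muscle layers were then set against the mesenchyme of the same samples, with all 3 groups averaged and the sample as a block. The muscle columns were shallow: 81 of the 116 genes had a count in circumferential and 70 in longitudinal muscle, and only 9 passed the filter of the 614-gene fit over all 36 columns. In circumferential muscle 6 of these 9 passed, 3 higher and 3 lower, beside 40.1% of the genes tested (21% higher and 19.1% lower). In longitudinal muscle 3 of 9 passed, 1 higher and 2 lower, beside 20.8% (9.93% higher and 10.9% lower). KLF5 and FOXP4 were lower and MEIS2 was higher in both muscle layers. The filter asks for a count of at least 10 at the median depth of the 36 columns. MEIS2 met it through its muscle values, so its calls rest on the values that let it in and are no independent support.

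KLF5 ranged over 117 to 551 CPM in circumferential muscle (median 329), 160 to 959 in longitudinal muscle (median 431) and 446 to 783 in mesenchyme (median 724, n = 12 samples each). It was lower in circumferential muscle than in the mesenchyme of the same sample in 12 of 12 samples (log2 fold change -1.07 ± 0.13, edgeR adjusted p = 8.3e-11) and lower in longitudinal muscle in 11 of 12 (-0.52 ± 0.15, adjusted p = 0.0079). Epithelial marker sums were also lower in muscle, at 628 to 2643 CPM in circumferential and 717 to 3181 in longitudinal muscle, against 1631 to 4347 in mesenchyme, and their part in this result was not tested. FOXP4 ranged over 131 to 292 CPM in circumferential muscle (median 194), 0 to 259 in longitudinal muscle (median 91.7) and 214 to 386 in mesenchyme (median 292). Its log2 fold change was -0.58 ± 0.16 in circumferential muscle (12 of 12 samples, edgeR adjusted p = 0.0026). In longitudinal muscle it was -1.48 ± 0.26 (11 of 12, edgeR adjusted p = 8.1e-06). The longitudinal value rested on 27 FOXP4 counts over the 12 samples, against 1394 in mesenchyme. A floor of 3 counts had a median of 153 CPM in longitudinal muscle, above the FOXP4 median there. FOXP4 did not pass the filter of either muscle layer alone, so the size of its longitudinal fold change is uncertain. NR2F6 was lower in circumferential muscle (-0.57 ± 0.16, 11 of 12 samples, edgeR adjusted p = 0.002), and in longitudinal muscle the value was -0.27 ± 0.20 (adjusted p = 0.36).

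Both MEIS genes were higher in circumferential muscle, but not with no low-count filter, where MEIS1 had 0.05 and MEIS2 0.03 (edgeR adjusted p 1 for both) and the median of all genes was -0.61. MEIS1 had medians of 233 CPM in circumferential muscle and 159 in mesenchyme (log2 fold change 0.57 ± 0.17, 10 of 12 samples, edgeR adjusted p = 0.0033), and in longitudinal muscle its value was 0.05 (95% interval -0.43 to 0.54). It ranged over 113 to 238 CPM in mesenchyme and 175 to 344 in circumferential muscle, so it too met the filter mainly through muscle values. MEIS2 gave 0.54 ± 0.22 in circumferential muscle (9 of 12 samples, edgeR adjusted p = 0.041) and 0.87 ± 0.27 in longitudinal muscle (8 of 12, adjusted p = 0.014). MEIS2 reached at most 325 and 377 CPM in these layers, against at most 144 in mesenchyme, and did not pass the filter of either muscle layer alone. Its circumferential call was lost with DESeq2 (adjusted p = 0.095) and in 7 of the 12 fits that left out 1 sample (hindgut replicate 1 or 4, Hoxd13 midgut replicate 2, 3 or 4, midgut replicate 1 or 4; adjusted p 0.053 to 0.25), and its longitudinal call without hindgut replicate 1, Hoxd13 midgut replicate 4 or midgut replicate 4 (adjusted p 0.12 to 0.24). GATAD2B gave 0.35 ± 0.13 in circumferential muscle (10 of 12 samples, edgeR adjusted p = 0.03), a call lost in 5 such fits (hindgut replicate 1 or 4, Hoxd13 midgut replicate 4, midgut replicate 1 or 4; adjusted p 0.054 to 0.22). Smooth muscle marker sums were 11690 to 23460 CPM in circumferential and 6601 to 11670 in longitudinal muscle, against 5341 to 15310 in mesenchyme, so the longitudinal region did not stand apart from all mesenchyme samples by these markers.

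**Figure D5:**
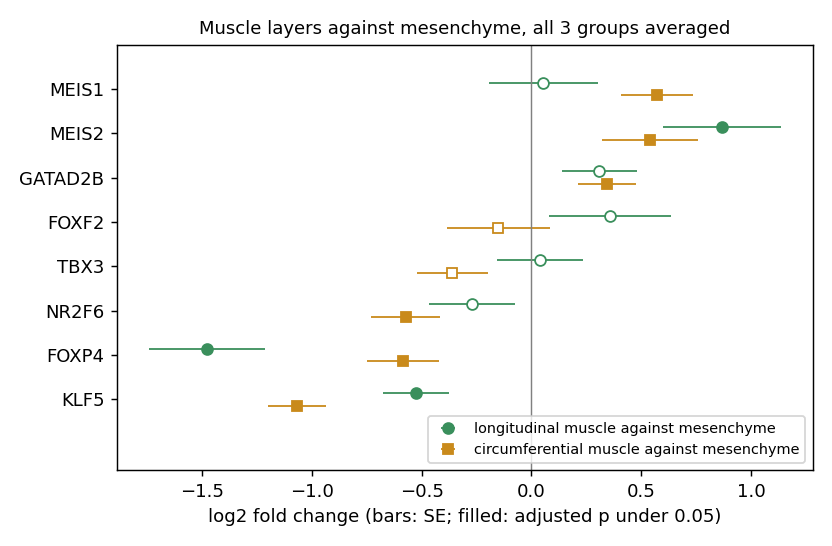
Log2 fold changes of genes that passed the filter over all 36 columns (x axis, bars are standard errors), for longitudinal muscle (circles) and circumferential muscle (squares) against the mesenchyme of the same 12 samples; filled symbols have an adjusted p under 0.05. KLF5 and FOXP4 are filled on the left and MEIS2 on the right in both muscles. FOXP4 and MEIS2 did not pass the filter of either muscle layer alone.

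Within the muscle layers no gene of these families passed in any of the 3 group comparisons with edgeR, where 1 could be tested in longitudinal and 3 in circumferential muscle, and 1 of these tests, GATAD2B for hindgut against midgut, had an unadjusted p under 0.05 (beside 10.6% of the genes tested there). GATAD2B had a log2 fold change of 0.87 ± 0.28 there (edgeR adjusted p = 0.2), and the background was 0% of 349 genes. For the other comparisons in circumferential muscle it was 4.87% for Hoxd13 midgut against midgut and 0.86% for hindgut against Hoxd13 midgut, and in longitudinal muscle, over 144 genes, 11.8% and 9.72%, with 1.39% for hindgut against midgut. Nor did the effect of hindgut or of Hoxd13 differ between a muscle layer and the mesenchyme for any of the 9 genes after adjustment, where 0 to 0.163% of the 614 genes passed. The smallest of these p-values was that of FOXF2 for Hoxd13 in circumferential muscle (difference of log2 fold changes 1.22, 95% interval 0.0521 to 2.39, unadjusted p = 0.044, edgeR adjusted p = 0.75). FOXF2 reached at most 180 CPM in mesenchyme, against 353 in circumferential and 351 in longitudinal muscle. Like MEIS2 it met the filter through muscle values, so this difference is no independent support. In circumferential muscle TBX3 averaged 157 ± 120 CPM in hindgut and 165 ± 14.9 in Hoxd13 midgut, against 277 ± 84.2 in midgut (SD, n = 4 each, 115 counts in all).

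NKX3-2, whose muscle values were looked at after its mesenchyme values, had more counts relative to depth in circumferential muscle than in mesenchyme when the 3 groups were pooled. Hindgut gave 37 of these circumferential counts, and longitudinal muscle had 8 counts in all. Over 12 samples NKX3-2 had 51 counts in circumferential muscle, or 93.4 CPM (exact 95% interval 69.6 to 123), and 148 counts in mesenchyme, or 31.4 CPM (26.5 to 36.8). In circumferential muscle hindgut had 12, 6, 3 and 16 counts, or 157 CPM over the group (111 to 217), Hoxd13 midgut 1, 2, 0 and 1 counts, or 23.0 CPM (6.25 to 58.8), and midgut 2, 2, 2 and 4 counts, or 73.2 CPM (35.1 to 135). The mesenchyme means of sample CPM, unlike these pooled values, were 62.8 in hindgut, 22.0 in Hoxd13 midgut and 17.9 in midgut. The 4 circumferential counts of Hoxd13 midgut were too few to show whether that group had such an excess. Per library of that layer, hindgut had 85.1, 164, 160.1 and 319 CPM, against 77.5, 47.9, 51.0 and 114 CPM in midgut, so hindgut replicate 1 lay among the midgut samples and replicates 2 to 4 lay above them. NKX3-2 did not pass the filter in muscle, so the main fits did not test it there. The fits with no filter took it in, but their values for it are not given here.

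The same tests were read for 105 other developmental transcription factors, chosen for families outside those above, of which 88 were in the table and 47 passed the filter. For hindgut against midgut 1 of 47 passed, beside 1.48% of all genes tested: HLX, a homeobox factor of gut mesenchyme, was higher (log2 fold change 1.25 ± 0.25, edgeR adjusted p = 0.013; 1.51 ± 0.19 without replicate 1, adjusted p = 1.1e-08), and the median of the 47 was 0.32. For Hoxd13 midgut against midgut none of the 47 passed with edgeR, beside 2.66% of all genes. At an unadjusted p under 0.05 there were 9, beside 16.8% of all genes, and the median of the 47 was 0.13. For hindgut against Hoxd13 midgut 3 passed, beside 3.78% of all genes, and were higher in hindgut: HES1, a Notch target (1.90 ± 0.34, adjusted p = 0.0032), ETS2 (1.20 ± 0.28, adjusted p = 0.02) and NFIC (0.64 ± 0.18, adjusted p = 0.048, all with edgeR). Without replicate 1 their values were 2.28 ± 0.26, 1.39 ± 0.31 and 0.82 ± 0.15 (edgeR adjusted p 3.1e-09, 0.00092 and 3.7e-05). Against mesenchyme, 14 of these factors were tested in muscle. In circumferential muscle 5 were higher and 1 lower, beside 21% and 19.1% of all genes. In longitudinal muscle 3 were higher and 0 lower, beside 9.93% and 10.9%. HLX, the smooth muscle cofactor MYOCD and NFIA were higher in both muscle layers, at 1.24 ± 0.17, 0.74 ± 0.28 and 0.45 ± 0.12 in circumferential and 1.03 ± 0.25, 1.11 ± 0.37 and 0.48 ± 0.15 in longitudinal muscle (edgeR adjusted p between 3e-09 and 0.028). Whether these 3 met the filter through their muscle values was not examined. Without hindgut replicate 1, 21 of the 47 passed for hindgut against midgut, 16 higher and 5 lower, beside 19.6% of all genes (10.1% higher and 9.52% lower).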

How the data were processed

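The authors deposited 1 table of counts: whole-number counts per gene for 12 samples and 3 layers, with no normalisation. GRCg6a, UMI-tools, STAR, MultiQC, featureCounts and DESeq2 are named without roles or versions, per the submitters' processing notes. Whether reads or molecules were counted was not given in the sources used here, so intervals and floors cover counting error only (95% confidence). Close paralogs such as TBX2 and TBX3 could share reads.

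Tests used R 4.3.3 and edgeR 4.0.16: quasi-likelihood test, two-sided, TMM factors, filterByExpr (count at least 10, total at least 15), Benjamini-Hochberg adjustment over all genes tested, threshold 0.05. In each layer, 12 samples shared 1 fit. Layers were compared over 36 columns with the sample as a block. CPM are counts over TMM library sizes scaled to the mean total. Single-gene CPM of the layer comparison, and of TBX3 in circumferential muscle, were scaled separately from those of the single layers. Alternatives were DESeq2 1.42.0, RLE factors, no filter, the 2 compared groups alone, mitochondrial genes left out, a replicate block, and each sample left out. Scripts were tested on simulated data. Chi-square tests of counts found no pair of replicates within sampling noise.

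Genes were named if they passed the mesenchyme filter and were called in any comparison, had an unadjusted p under 0.05 in the mesenchyme, or were among the 12 with the highest mean CPM, and if, below the filter, they had at least 10 counts and none in a whole group. Marker lists also covered fibroblasts, mesothelium, Cajal cells and immune cells. Mesenchyme sums in hindgut, Hoxd13 midgut and midgut averaged 143, 112 and 170 CPM for mesothelium, 193.5, 183 and 182 CPM for Cajal cells and 115, 87.2 and 94.3 CPM for immune cells. Some of the genes tested are counted but not reported here by name. Families and lists were chosen with earlier results of these data known.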

Additional observations from a re-analysis of the deposited data

Results flagged for a closer look

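In groups of 4 samples, a sample was singled out when its gap to the nearest other sample, divided by the range of the group, passed the 95% critical value of Dixon's test. Of 87 groups (29 genes in 3 mesenchyme groups), 9 had such a sample. The nominal level of the test is about 1 in 20. The genes were chosen on these same values and share the same 12 samples, so the 9 cannot be set against that level.

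Hindgut replicate 1 was that sample for 5 genes. It was high for GATA5 (89.0 CPM, the others at 0), PRRX1 (11.6 CPM, the others at 0), GATA4 (48.96 CPM, the others 0 to 5.39) and TBX3 (357 CPM, the others 148 to 173). It was low for SOX9 (154 CPM, the others 194 to 201).

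The other 4 were spread over the groups. Hindgut replicate 3 was high for MEIS2 (158 CPM, the others 104 to 108). Hoxd13 midgut replicate 1 was high for NR2F6 (354 CPM, the others 319 to 321). Midgut replicate 1 was low for CDX1 (91.2 CPM, the others 115 to 117) and midgut replicate 4 was high for FOXF2 (172 CPM, the others 125 to 130).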

How the results depend on the processing

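For hindgut against midgut, where none of the 46 tested genes passed, 9 of 114 passed with no filter, 2 with DESeq2, 4 with the replicate block, and 0 to 18 with 1 sample left out, beside 1.37%, 2.68% and 3.42% of all genes for the first 3. The value of 18 came without hindgut replicate 1 (19.6% of all genes), and every other sample left out gave 0. For Hoxd13 midgut against midgut, 2 passed, against 5 of 114 with no filter, 1 with DESeq2, 1 with the replicate block, 9 of 40 with the 2 groups alone (beside 1.02%, 1.58%, 1.89% and 10.1% of all genes), and 0 to 7 with 1 sample left out (7 without hindgut replicate 1, 0 without any 1 Hoxd13 midgut sample or midgut replicate 4). For hindgut against Hoxd13 midgut, 4 passed, against 9 of 114 with no filter and 1 with DESeq2 (beside 1.24% and 2.59% of all genes), and 1 to 15 with 1 sample left out, the lowest without Hoxd13 midgut replicate 4. In that comparison DESeq2 gave KLF6, KLF2 and FOXA1 no adjusted p. Longitudinal muscle gave 3 (23 of 116 with no filter, beside 15.3% of all genes, 2 to 3 with 1 sample left out), circumferential muscle 6 (20 of 116 with no filter, beside 9.65%, 4 to 8 with 1 sample left out), and the group comparisons within circumferential muscle 0 (1 with no filter, 0 to 1 with 1 sample left out). Without the filter the median of all genes shifted to -1.01 in longitudinal and -0.61 in circumferential muscle, and relative to mesenchyme MEIS2 turned to -0.011 in longitudinal and GATAD2B to -0.17 in circumferential muscle, both above that median. The cause of these changes was not tested. RLE factors and, where run, leaving out mitochondrial genes kept every count above within 1.5 times. Samples with the same number did not deviate together (correlations -0.27 to 0.09), so the replicate block is no paired analysis. Under it KLF6 for Hoxd13 midgut against midgut and FOXA1 for hindgut against Hoxd13 midgut did not pass (edgeR adjusted p 0.056 and 0.051). Muscle columns of 11233 to 112252 counts limit what can be seen there.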
